A study of Mus musculus with 4 samples.

Results

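The 56 replication-dependent histone cluster genes on the arrays were read by 68 probes, out of 37074 gene names and 56605 probes in all. They are all non-control probes whose gene name begins with Hist1h, Hist2h, Hist3h or Hist4h. The names fall into the Hist1 cluster (42 genes, chromosome 13), Hist2 (10 genes, chromosome 3), Hist3 (3 genes, chromosome 11) and Hist4 (1 gene, chromosome 6), and all 56 matched a current mouse RefSeq symbol. By the histone type in the gene name, 8 probes read 6 genes of the linker histone H1, 21 read 18 H2A genes and 18 read 14 H2B genes. A further 10 read 9 H3 genes and 11 read 9 H4 genes. Hist1h2al and Hist3h2bb-ps are counted here, though their current symbols, H2af-ps2 and H2bu1-ps, are those of pseudogenes.

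The cells were GC-1, also written GC1, a line derived from mouse spermatogonia. Hdac6 vector cells were transfected with a pCMV plasmid that carries murine Hdac6 behind a CMV promoter and fused to a myc/DDK tag. Empty vector cells received the plasmid without Hdac6, and both were harvested 48 h after transfection. Each group had 2 one-colour Agilent arrays, numbered 1 and 2 in the labels, which do not say whether the arrays of a group came from separate cultures or whether the cells were selected for the plasmid. The p-values below therefore cover the spread among these arrays, and that spread may be technical. Reverse transcription of the total RNA was primed with oligo-dT. For the histone probes empty vector array 1 stood apart from the other arrays, so results are given with and without it.

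Replication-dependent histone genes supply the histones that package newly copied DNA and are transcribed mainly in S phase. Their mRNAs normally end just after a conserved stem-loop instead of a poly(A) tail, after cleavage guided by the stem-loop binding protein SLBP and the U7 small nuclear ribonucleoprotein. An oligo-dT primer copies RNA that carries a run of A, so the signal reported here is that of histone RNA which the primer could copy, and the share of each gene's RNA that this represents was not measured. Some histone cluster genes are also known to give longer polyadenylated transcripts that run past the stem-loop. Many of the genes have nearly identical coding sequences, so that a probe in the coding part can bind RNA of several of them. In bulk RNA, fewer cells of a kind and less RNA per cell cannot be told apart.

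The probes show where on the histone mRNA the arrays read. The hairpin that histone probes most often held, with a stem of 6 bases and a loop of 4, was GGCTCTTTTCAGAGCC, the known histone stem-loop. Searched on the strand of the probe as the files give it, these letters stood whole in 4 of the 68 probes (5.88%), against 5 of all 56605 (0.0088%). A further 2 probes held a variant with other letters in the stem or loop, 4 ended within the stem-loop and 1 began within it. Windows of the whole and variant stem-loops are given here because they place the probe at the normal end of the mRNA, with the stem-loop in capitals and the mm9 position of the whole probe beside each name.
Hist1h3a (chr13:23853756-23853815, minus strand): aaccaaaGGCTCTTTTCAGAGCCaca
Hist1h3i (chr13:21874784-21874843, minus strand): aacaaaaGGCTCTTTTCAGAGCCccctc
Hist1h2bf (chr13:23665629-23665688, minus strand): acccaaaGGCTCTTTTCAGAGCCaccta
Hist2h2bb (chr3:96074056-96074115, plus strand): cccaaaaGGCTCTTTTCAGAGCCacttta
Hist1h3g (chr13:23627719-23627778, plus strand): ctttaaaGGCTCTTCTTAGAGCCaccca
Hist1h4m (chr13:21903960-21904019, plus strand): aactaaaGGCCCTTTTCAGGGCCatccaa

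The polyadenylation signal letters AATAAA stood in 4 of the 68 histone probes (5.88%) and in 9.77% of all probes, and the variant ATTAAA in 1 (1.47%) and 3.86%. Windows of 4 such probes follow because each starts at least 542 bases into its transcript, with the signal in capitals.
Hist2h2bb, downstream probe (chr3:96082754-96082813, plus strand): gttgtcagtttgAATAAAgacagagaaact
Hist3h2ba, downstream probe (chr11:58762964-58763023, plus strand): gttcataatggtattAATAAAtttggttca
Hist2h2be (chr3:96027578-96027637, plus strand): gatcgAATAAAtccattcactgcatgtgca
Hist1h2be (chr13:23675610-23675669, minus strand): gtactgttcattATTAAAgcattcctgatt

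Probes for 9 H2A genes, which start 328 to 459 bases into their transcripts, were so alike that they may read one pool of RNA. Each shared an unbroken run of 29 to 45 bases with another, and 6 of the 9 list accessions of more than 1 RefSeq gene. Not printed are Hist1h2ag, Hist1h2an and Hist1h2ao, whose longest runs shared with the Hist1h2af probe were 29, 20 and 15 bases. The other 6 of the 9 are printed, with the longest run each shares with the Hist1h2af probe in capitals.
Hist1h2af (chr13:23626113-23626172, plus strand): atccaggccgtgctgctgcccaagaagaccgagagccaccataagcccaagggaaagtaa
Hist1h2ah (chr13:22127035-22127094, minus strand): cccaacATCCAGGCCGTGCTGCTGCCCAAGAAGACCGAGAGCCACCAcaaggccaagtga
Hist1h2ak (chr13:21845304-21845363, minus strand): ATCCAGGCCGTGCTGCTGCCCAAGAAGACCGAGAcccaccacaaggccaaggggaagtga
Hist2h2aa2 (chr3:96043781-96043840, minus strand): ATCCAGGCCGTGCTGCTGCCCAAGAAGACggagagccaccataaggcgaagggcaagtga
Hist2h2ac (chr3:96024378-96024437, minus strand): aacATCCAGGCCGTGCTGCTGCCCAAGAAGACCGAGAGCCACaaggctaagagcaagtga
Hist1h2aa (chr13:24026659-24026718, plus strand): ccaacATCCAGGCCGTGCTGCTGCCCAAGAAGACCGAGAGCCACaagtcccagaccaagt

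Which of the 9 genes gave the signal of these probes cannot be told apart on these arrays. A probe for H2afj, a replication-independent H2A gene outside the clusters, shares a run of at least 20 bases with 6 histone cluster probes, so that RNA of H2afj may add to them too. Smaller groups of nearly alike probes read Hist1h4d, Hist1h4j and Hist1h4k (3 probes) and Hist1h4d and Hist1h4k again (2 probes).

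Levels are log2 processed signal minus the array's 75th percentile, so 0 is a probe at that percentile, and a probe is detected where the scanner software flags it as well above background. Over all probes, 62.7% and 59.3% were detected on Hdac6 vector arrays 1 and 2, against 64.9% and 63.6% on empty vector arrays 1 and 2, with 75th percentiles of 815 and 453 against 666 and 693 units of processed intensity. The array's 1 Hdac6 probe gave 2.62 and 3.24 in Hdac6 vector cells, against 3.31 and 2.83 in empty vector cells. It starts at base 4081 of its transcript and holds AATAAA, and the labels do not say whether the plasmid carries these bases, so it does not check the labels. Hdac6 vector array 1 and empty vector array 2 were the closest pair, with 0.604% of 32601 probes at least 2-fold apart, against 3.82% to 6.85% for the other pairs. Of 14 spermatogonial markers 8 were detected on all arrays, Kit, Dazl and Thy1 on none, while the counts on all arrays were 4 of 7 for Sertoli cells (Amh and Cldn11 on none), 8 of 8 for myoid cells and fibroblasts, 5 of 6 for macrophages and leukocytes, 4 of 5 for spermatids and 1 of 5 for Leydig cells.

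Most histone cluster probes gave a signal from oligo-dT primed RNA. Of the 68 probes 18 list accessions of more than 1 RefSeq gene, up to 4. A detected probe therefore does not always show which gene gave the signal. On Hdac6 vector arrays 1 and 2, 59 and 60 of the 68 probes were detected, against 60 on each empty vector array. The 58 probes detected on all arrays were 6 of 8 for H1, 15 of 21 for H2A, 16 of 18 for H2B and all 10 for H3 and 11 for H4. The 6 probes detected on none read Hist1h1t, Hist1h2ad, Hist2h2aa1, Hist2h2ab, the pseudogene Hist3h2bb-ps and the second probe of Hist2h2ac. With a less strict flag, signal positive and significantly over background, 63 of 68 were detected on all arrays.

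**Figure D1:**
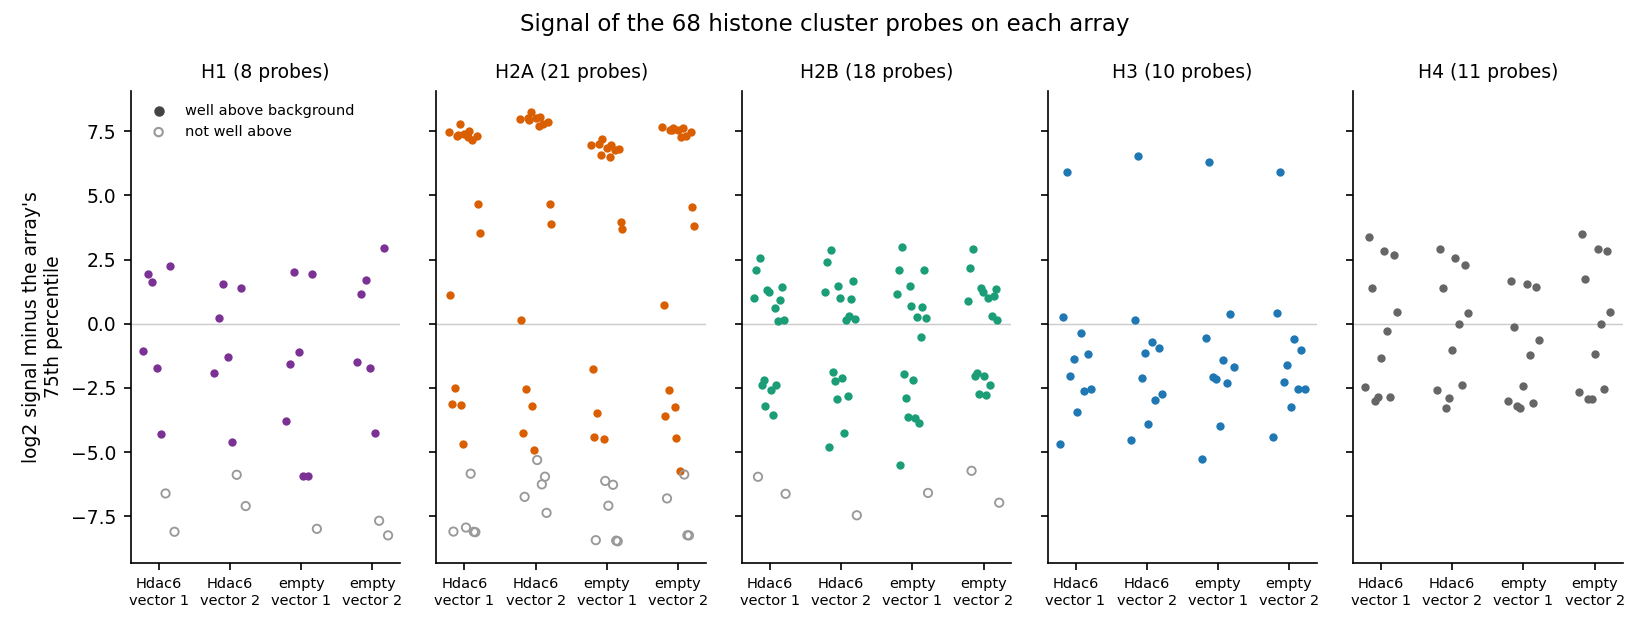
Level of each of the 68 histone cluster probes on the 4 arrays, by histone type, as log2 signal minus the array's 75th percentile. Filled points were well above background and open points were not, and the band near the top of the H2A panel holds the 9 nearly alike H2A probes, which lie between 6.51 and 8.26.

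Among probes detected on all arrays, the 2 highest H2A probes belonged to the nearly alike set, Hist1h2ah and Hist1h2ao. For H3 they were Hist1h3c and Hist1h3d, with Hist1h3d at 5.93 and 6.54 on the Hdac6 vector arrays and 6.31 and 5.92 on the empty vector arrays, which overlap. For H4 the 2 highest were Hist1h4d and Hist1h4k, for H2B they were Hist1h2bc and Hist1h2bb, and for H1 they were Hist1h1e and Hist1h1c. Since probes differ in how well they bind, these levels place no gene above another.

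Between Hdac6 vector and empty vector cells, no histone cluster probe passed the test. A probe was tested where it was detected on both arrays of at least 1 group, which held for 59 of the 68 probes and 50 of the 56 genes. With limma and Benjamini-Hochberg adjustment over 35214 tested probes, 0 of the 59 had an adjusted p under 0.05, against 4 of all tested probes (0.0114%). At an unadjusted p under 0.05 the count was again 0, against 646 of all (1.83%), and the smallest unadjusted p among the histones, for Hist1h2ah and Hist1h3g, was 0.067. This count depended on the processing. With normexp correction 11 of the 59 histone probes had an unadjusted p under 0.05, against 553 of all 35214 (1.57%), and 1 passed after adjustment. In the normexp fit limma used only the variance shared by probes of like level and gave no weight to a probe's own spread. The background correction was thus not the only difference, and the median histone log2 fold change was smaller there (0.23, against 0.31). In the fit reported all 59 of the 95% intervals held 0. On the log2 scale they reached 0.53 to 1.79 to either side of the fold change, with a median of 0.74. Differences within such intervals were not detectable with 2 arrays a group.

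By sign alone, 42 of the 59 probes were higher in Hdac6 vector cells and 17 lower, their median log2 fold change being 0.31, beside 0.02 over all tested probes. Counted by gene, with the brightest tested probe for each, 37 of 50 were higher and the median was 0.30. Of all 35214 tested probes 18729 were higher. The histone counts include the 14 nearly alike H2A and H4 probes, which were all higher and are not 14 separate readings. Outside these groups 45 histone probes were tested, of which 28 rose and 17 fell by sign, and their median was 0.12. Leaving out only the 9 nearly alike H2A probes, 28 of 41 genes were higher, with a median of 0.19. In 7 of the 59 probes (11.9%) both Hdac6 vector arrays lay above both empty vector arrays, against 13.1% of all tested probes in this direction. In 4 (6.78%) both lay below, against 11.9% of all, and these read Hist1h1c, Hist1h2bc, Hist2h3c1 and Hist2h3c2. The first share is close to that of all probes and the second below it, and no test was made of either.

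**Figure D2:**
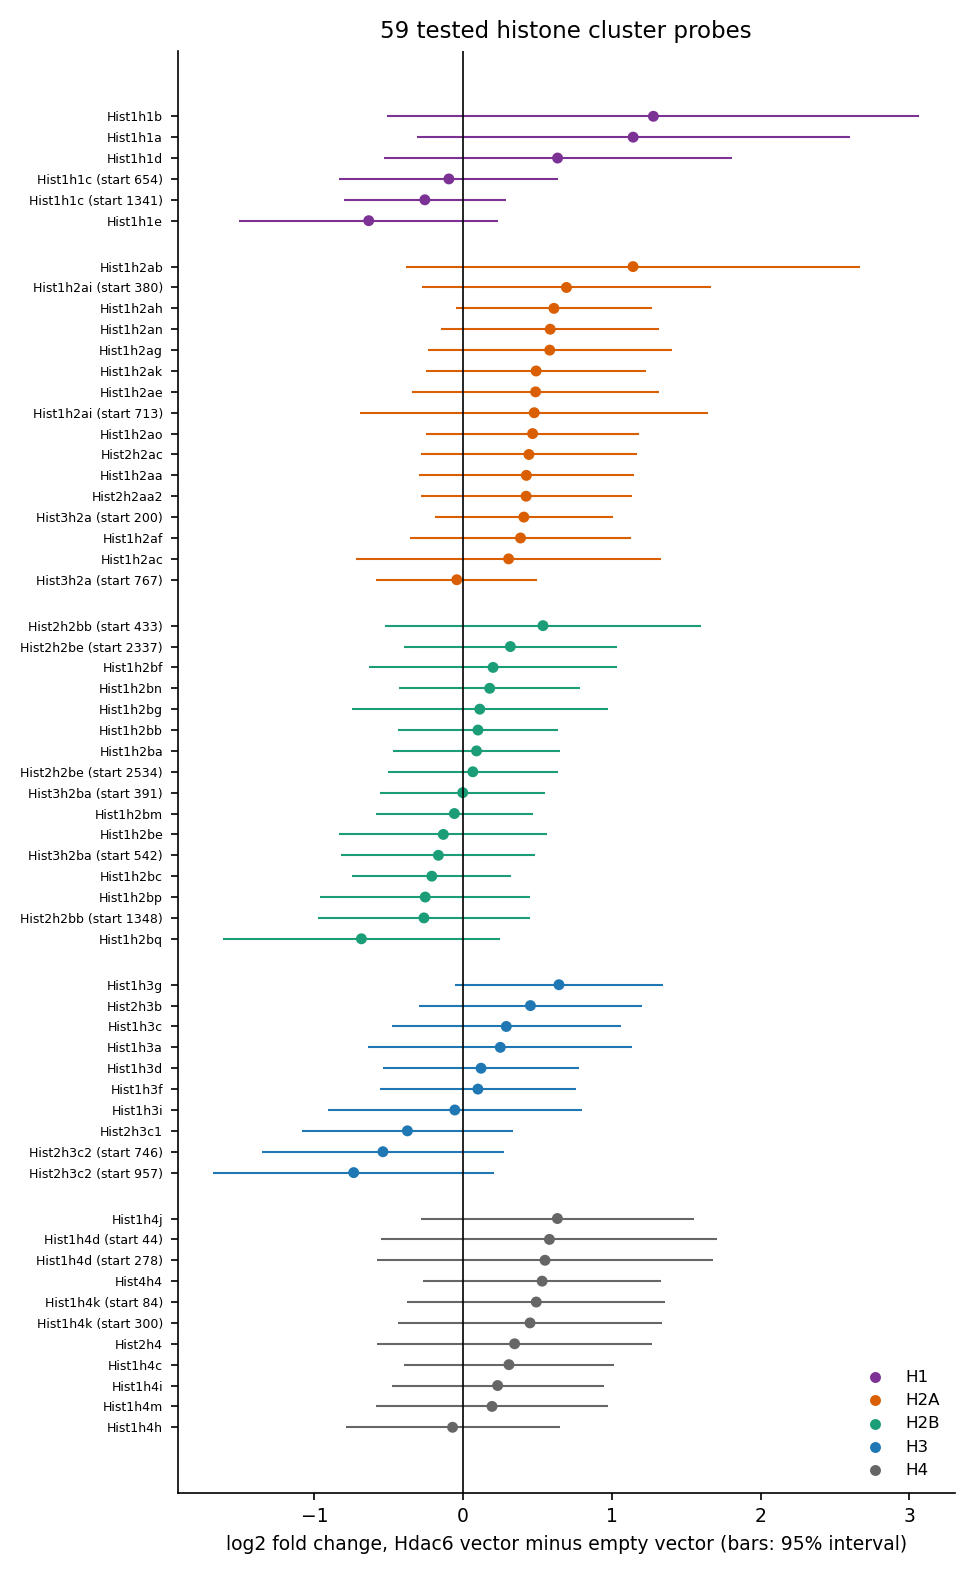
Log2 fold change of Hdac6 vector over empty vector for each of the 59 tested histone cluster probes, grouped by histone type and ordered by size, with 95% limma intervals as bars. Every bar crosses 0, H2A (15 of 16) and H4 (10 of 11) points lie mostly to the right of 0, and H2B points are divided 8 and 8.

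Much of this difference came from 1 array. Empty vector array 1 was the lowest of the 4 arrays for 39 of the 59 histone probes, against 9934 of all 35214 tested probes. Relative to each probe's own mean over the 4 arrays, the median histone probe stood at 0.08 and 0.12 on Hdac6 vector arrays 1 and 2, against -0.51 and 0.17 on empty vector arrays 1 and 2. The other arrays thus lay close together and empty vector array 1 apart from them. The median distance between the arrays of a group was 0.31 in Hdac6 vector cells and 0.72 in empty vector cells, beside 0.33 and 0.29 over all tested probes.

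Without empty vector array 1, 24 of the 59 probes were higher and 35 lower in Hdac6 vector cells, and the median log2 fold change was -0.09. Without empty vector array 2, 43 were higher and 16 lower, with a median of 0.69. In that comparison against empty vector array 1 alone, in which the lone array is assumed to vary like the Hdac6 vector arrays, 6 histone probes passed an adjusted p of 0.05 in limma, beside 302 of all 35206 tested (0.858%). They read Hist1h1a, Hist1h1b, Hist1h2ab and, with both probes, Hist1h4d, all higher in Hdac6 vector cells, and Hist2h3c2, which was lower. The direction of the histone genes as a group therefore depended on which empty vector array was kept.

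**Figure D3:**
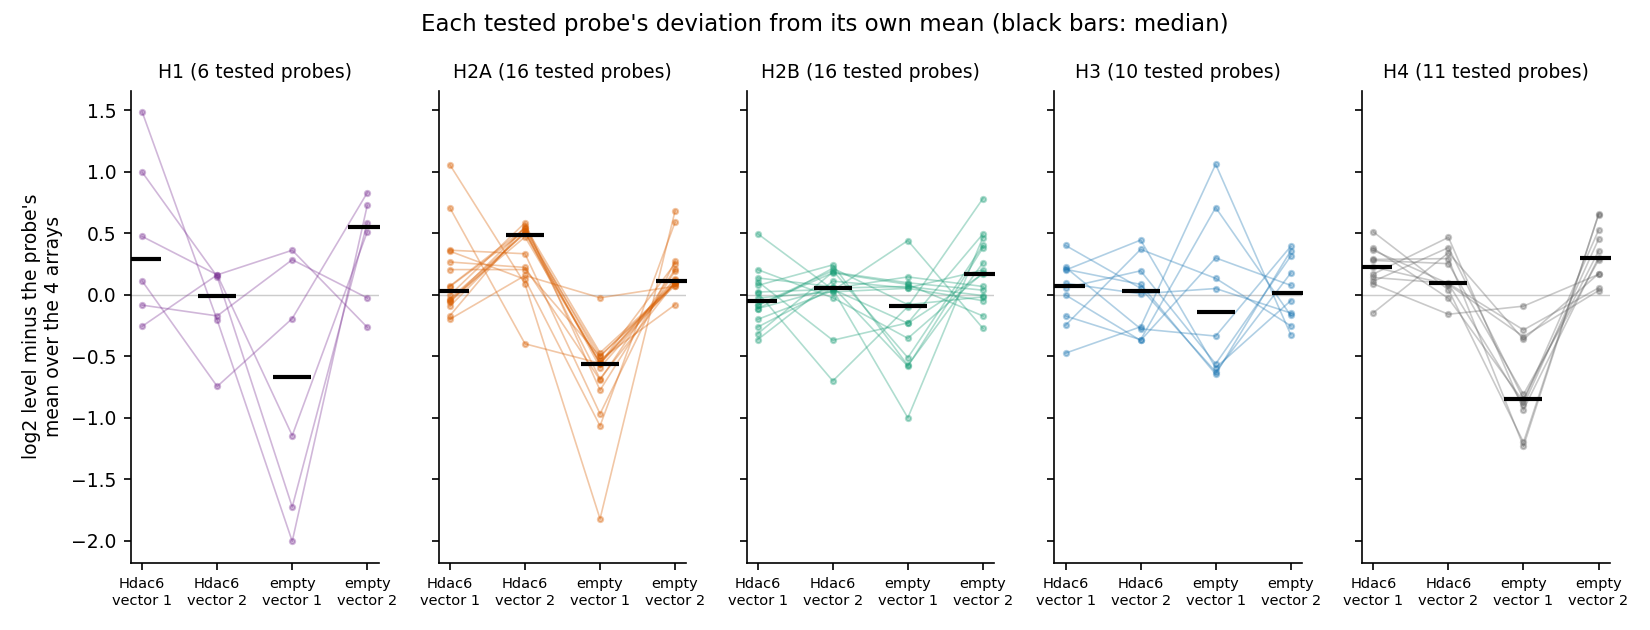
Level of each tested histone probe minus its own mean over the 4 arrays, with 1 line per probe and a black bar at the median of the type. Empty vector array 1 has the lowest median in all 5 types, from -0.09 for H2B to -0.85 for H4.

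H1 histones bind the linker DNA between nucleosomes. Hist1h1b, a somatic H1, gave 1.93 and 0.24 in Hdac6 vector cells, against -1.56 and 1.17 in empty vector cells, the groups overlapping. Its log2 fold change of 1.28 was the highest of all histone probes, with a 95% interval of -0.51 to 3.07. Hist1h1a gave -1.07 and -1.92 in Hdac6 vector cells, against -3.79 and -1.48 in empty vector cells, a log2 fold change of 1.14 (-0.31 to 2.60). In both genes empty vector array 1 was the lowest by a wide margin while empty vector array 2 lay among the Hdac6 vector arrays. Hist1h1e went the other way, at 2.23 and 1.38 in Hdac6 vector cells against 1.93 and 2.95 in empty vector cells, with a log2 fold change of -0.64 (-1.51 to 0.24). Here empty vector array 2 was the high one. The Hist1h1c probe that ends in the stem-loop stood at -0.10. The one further along stood at -0.26 (-0.80 to 0.29), with both Hdac6 vector arrays below both empty vector arrays. Over the 6 tested H1 probes the median was 0.27, with 3 higher and 3 lower. Without empty vector array 1 the median was -0.09, with 1 higher and 5 lower.

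H2A pairs with H2B in the nucleosome core. Of 16 tested H2A probes 15 were higher in Hdac6 vector cells by sign, with a median log2 fold change of 0.47. The 9 nearly alike probes accounted for 9 of these 15. Their levels ran from 7.17 to 7.79 and 7.72 to 8.26 on Hdac6 vector arrays 1 and 2, against 6.51 to 7.19 and 7.30 to 7.65 on empty vector arrays 1 and 2. All 9 were highest on Hdac6 vector array 2 and lowest on empty vector array 1, with log2 fold changes of 0.39 to 0.61, and since they share sequence they are not 9 separate readings. Hist1h2ah, with the highest of these, gave 7.79 and 8.26 in Hdac6 vector cells against 7.19 and 7.63 in empty vector cells, and is the 1 probe of the 9 whose groups do not overlap. Its log2 fold change was 0.61 (-0.05 to 1.27), with an unadjusted p of 0.067. Hist1h2an and Hist1h2ao stood at 0.59 and 0.47. The H2afj probe, outside the clusters, gave 7.42 and 7.95 in Hdac6 vector cells against 7.07 and 7.62 in empty vector cells, so it too was highest on Hdac6 vector array 2 and lowest on empty vector array 1, with a log2 fold change of 0.34.

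The other 7 tested H2A probes were 6 higher and 1 lower, with a median of 0.48, and 6 of them were lowest on empty vector array 1. Hist1h2ab, whose probe ends within the stem-loop, gave 1.1 and 0.13 in Hdac6 vector cells, against -1.78 and 0.73 in empty vector cells, a log2 fold change of 1.14 (-0.39 to 2.67). Hist1h2ai, by its probe that also ends in the stem-loop, gave -3.18 and -3.21 in Hdac6 vector cells, against -4.51 and -3.26 in empty vector cells. The groups did not overlap, but empty vector array 2 lay close to both Hdac6 vector arrays, and the log2 fold change was 0.69 (-0.28 to 1.66). Hist1h2ac had the lowest value among H2A genes by their brightest probe, 0.31 (-0.72 to 1.33). Without empty vector array 1, 12 of the 16 H2A probes stayed higher by sign, with a median of 0.10. These 12 include all 9 nearly alike probes, which are not separate readings and had a median of 0.14.

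H2B probes showed no common sign. Of 16 tested, 8 were higher and 8 lower in Hdac6 vector cells, with a median of 0.03; without empty vector array 1 they were 4 and 12, with a median of -0.12. Hist1h2bc gave 2.57 and 2.88 in Hdac6 vector cells against 2.97 and 2.90 in empty vector cells, without overlap. Its log2 fold change was -0.21 (-0.74 to 0.32). Hist1h2bb gave 2.08 and 2.41 against 2.11 and 2.17 in empty vector cells, a log2 fold change of 0.10 (-0.44 to 0.64). The lowest H2B value belonged to Hist1h2bq, at -3.56 and -4.28 in Hdac6 vector cells against -3.67 and -2.79 in empty vector cells, a log2 fold change of -0.68 (-1.62 to 0.25). By the brightest probe of each gene the highest was Hist1h2bf, whose probe holds the whole stem-loop, at 0.20 (-0.63 to 1.04).

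H3 carries much of the modified tail of the nucleosome. Of 10 tested H3 probes 6 were higher and 4 lower, with a median of 0.11; without empty vector array 1 they were 4 and 6, with a median of -0.07. Hist1h3g, whose probe holds a variant stem-loop, gave -1.37 and -1.12 in Hdac6 vector cells against -2.16 and -1.62 in empty vector cells, without overlap, and a log2 fold change of 0.64 (-0.06 to 1.34). Hist2h3c2 was read by a pair of probes further along the transcript. The later one gave -1.17 and -0.96 in Hdac6 vector cells against 0.36 and -1.02 in empty vector cells, a log2 fold change of -0.74 (-1.68 to 0.21), the lowest of all histone probes. The earlier one gave -2.55 and -2.74 in Hdac6 vector cells against -1.67 and -2.54 in empty vector cells, narrowly without overlap, and a log2 fold change of -0.54. In both, empty vector array 1 was the highest array, the reverse of most histone probes. Hist1h3d stood at 0.12 (-0.54 to 0.78) and Hist1h3c at 0.29.

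H4 pairs with H3 and is the most uniform core histone, and 10 of 11 tested H4 probes were higher in Hdac6 vector cells by sign, with a median log2 fold change of 0.45. Hist1h4d, by its brighter probe, gave 3.37 and 2.90 in Hdac6 vector cells against 1.66 and 3.51 in empty vector cells, a log2 fold change of 0.55 (-0.58 to 1.68). Hist1h4k gave 2.83 and 2.56 in Hdac6 vector cells against 1.57 and 2.92 in empty vector cells, a log2 fold change of 0.45 (-0.44 to 1.34). In both genes the highest and the lowest value were the empty vector arrays. Hist1h4j had the highest H4 value, 0.63 (-0.28 to 1.55), and Hist1h4h the lowest, -0.07 (-0.79 to 0.65). Empty vector array 1 was lowest in 10 of the 11 probes, and without it 3 were higher and 8 lower, with a median of -0.11.

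The testis members differed in whether they were seen at all. Hist1h1t, the linker histone of meiotic germ cells, was detected on no array, at -8.11 and -7.11 in Hdac6 vector cells and -7.99 and -8.25 in empty vector cells. Hist1h2ba, a germ cell H2B, was detected on all, at 0.99 and 1.26 in Hdac6 vector cells against 1.16 and 0.91 in empty vector cells, with a log2 fold change of 0.09 (-0.47 to 0.65). Its longest run shared with another histone probe, that of Hist1h2bb, was 17 bases. Only probes were compared, so whether it also binds RNA of other H2B genes was not checked. Hist1h2aa, a germ cell H2A, read 7.48 and 7.99 in Hdac6 vector cells against 6.97 and 7.65 in empty vector cells, a log2 fold change of 0.43 (-0.30 to 1.15). That probe shares a run of 45 bases with the Hist2h2ac probe and is highest and lowest on the same arrays as the rest of the nearly alike set, so the signal cannot be assigned to Hist1h2aa.

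Where a probe lay in the transcript went with its value. Probes were called downstream where they start at least 500 bases into the transcript, or 1000 for the longer H1 genes, a rule set after the values had been seen. Of 17 tested downstream probes 6 were higher and 11 lower in Hdac6 vector cells, their median being -0.17 on the log2 scale. Of the 42 others 36 were higher and 6 lower, with a median of 0.42. The 42 include all 14 probes of the nearly alike H2A and H4 groups, which are not 14 separate readings. All 14 were higher and were lowest on empty vector array 1. Empty vector array 1 was lowest in 6 of the 17 downstream probes and in 33 of the 42 others. The core histone probes on either side of the limit were Hist1h2bp, which starts at base 505 and stood at -0.26, and Hist1h2ao, at base 459 and 0.47, while for H1 they were Hist1h1c at base 1341 and Hist1h1e at base 661, at -0.26 and -0.64.

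Histone type and position were unevenly mixed, since 9 of 16 tested H2B probes but 0 of 11 H4 probes were downstream. Within types the medians of downstream and other probes were -0.17 and 0.10 for H2B, -0.54 and 0.25 for H3, and 0.39 and 0.48 for H2A, with 9, 3 and 4 downstream probes. Without empty vector array 1 the medians were -0.10 for downstream probes and 0.03 for the others; 15 of the 17 downstream probes and 20 of the 42 others were then lower.

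**Figure D4:**
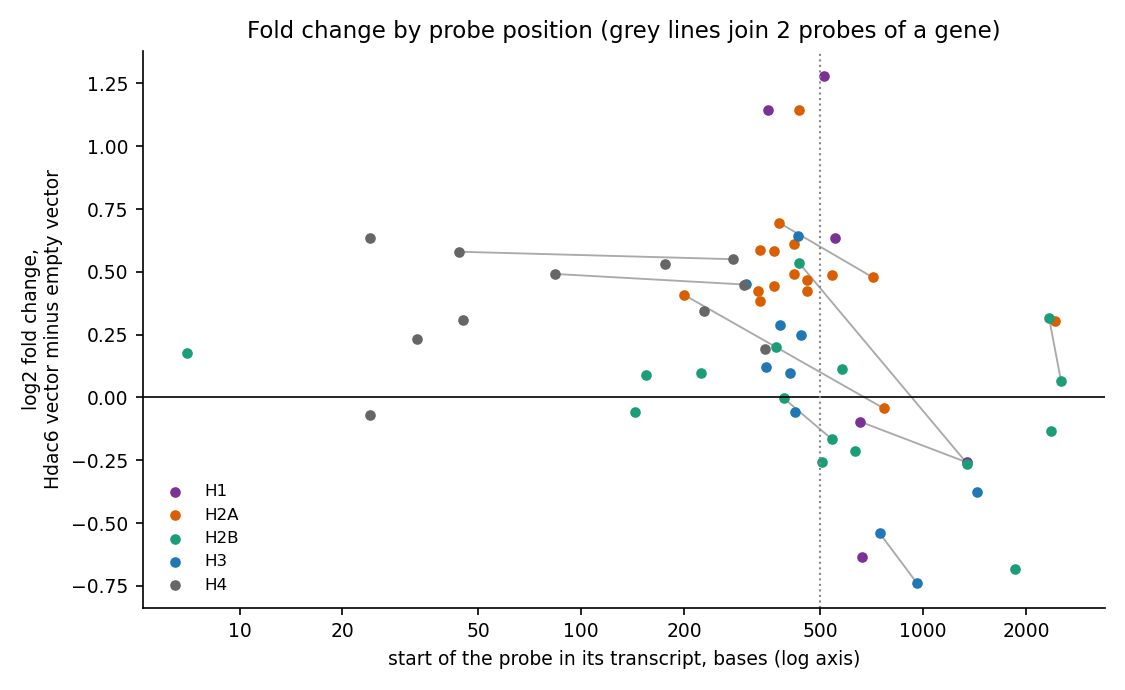
Log2 fold change of each tested histone probe against the base at which the probe starts in its transcript (log axis), coloured by histone type. Grey lines join the probes of the 9 genes with a tested pair, all of which slope downwards, and the dotted line marks base 500. The lines of Hist1h4d and Hist1h4k join nearly alike probes and are not separate readings.

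Some genes were read by a pair of probes at different places in the transcript. Both probes were tested in 9 of the 12 genes that have 2, and in all 9 the later probe had the lower log2 fold change, by 0.03 to 0.80 with a median of 0.20, which is smaller than the intervals of the single values. For Hist1h2ai the files place the probes of the pair 93712 bases apart in mm9, so they may not read one locus. Among the other 8 genes the later probe was lower in 8, and in 6 without empty vector array 1. The pairs of Hist1h4d and Hist1h4k, with differences of 0.03 and 0.04, are not separate readings. Their earlier probes are nearly alike, and so are their later probes. Signs were opposite in Hist2h2bb and Hist3h2a. The stem-loop probe of Hist2h2bb gave -2.38 and -2.83 in Hdac6 vector cells against -3.87 and -2.41 in empty vector cells, a log2 fold change of 0.54. Its downstream probe, which lies 8698 bases further on in mm9 and holds AATAAA, gave 0.62 and 0.14 in Hdac6 vector cells against 0.28 and 1.00 in empty vector cells, a log2 fold change of -0.26. Empty vector array 1 was the lowest array for the stem-loop probe and not for the downstream one. In Hist3h2a the earlier probe gave 4.66 and 4.66 in Hdac6 vector cells against 3.96 and 4.55 in empty vector cells (0.41), and the later one 3.53 and 3.88 against 3.70 and 3.80 in empty vector cells (-0.04).

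Lists of genes that act on histone supply had medians near 0 on empty vector array 1, which was the lowest array for 23 of the 104 tested genes, H2afj, Snrpd3, Npm3 and Mcm5 among them. Of the 104 tested genes in 4 lists 0 passed an adjusted p of 0.05 in limma, and 0 had an unadjusted p under 0.05. The median of the 32 S phase genes relative to their own means was -0.18 and 0.20 on Hdac6 vector arrays 1 and 2, against 0.03 and -0.11 on empty vector arrays 1 and 2. On empty vector array 1 the other lists lay at 0.02 (processing and transcription), 0.13 (chaperones) and 0.09 (replication-independent histones). Of the S phase genes 22 were higher and 10 lower in Hdac6 vector cells (median log2 fold change 0.11). Pcna, the sliding clamp of DNA polymerase, gave 7.01 and 7.22 in Hdac6 vector cells against 7.04 and 6.86 in empty vector cells, and Rrm2, a subunit of ribonucleotide reductase, 5.30 and 6.11 against 5.77 and 5.73 in empty vector cells. The S phase genes with the highest log2 fold changes were Mcm5 (0.27) and Cdk2 (0.26), and those with the lowest were Ccna2 (-0.34) and Fen1 (-0.16).

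**Figure D5:**
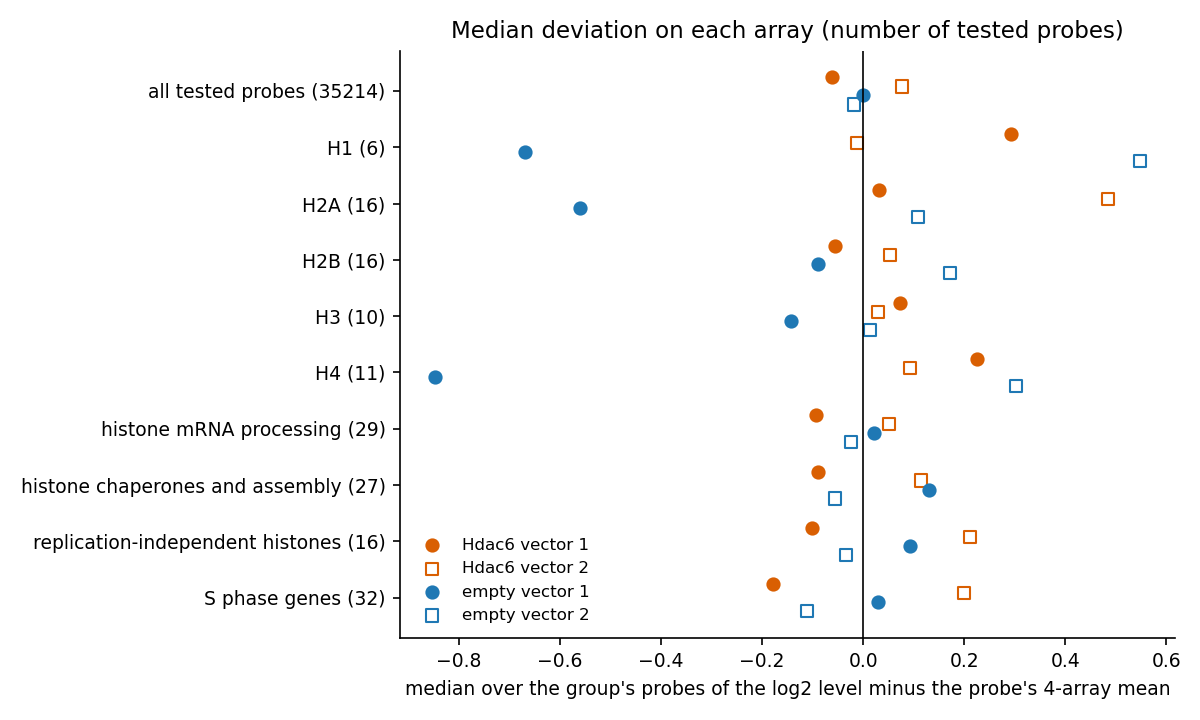
Median over the probes of each group of the log2 level minus the probe's 4-array mean, on each of the 4 arrays, for all tested probes, the 5 histone types and 4 lists of genes of histone supply. Empty vector array 1 lies at -0.56 for H2A, -0.67 for H1 and -0.85 for H4. It lies at -0.09 for H2B, -0.14 for H3 and 0.03 for S phase genes.

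Among 29 genes listed under histone mRNA processing and transcription 15 were higher and 14 lower in Hdac6 vector cells (median log2 fold change 0.05). Zbtb17 (-0.05), 1 of the 29, entered the list through its other name Zfp100, and its place in it was not checked. Slbp, which binds the stem-loop, gave 3.31 and 4.04 in Hdac6 vector cells against 3.83 and 3.30 in empty vector cells, a log2 fold change of 0.11. Npat, a coactivator of histone genes, stood at -0.13 and Casp8ap2 at 0.15. The extremes were Snrpd3 (0.46) and Cstf3 (0.22) above and Zfp473 (-0.55) and Lsm11 (-0.51), a protein of the U7 particle, below. Lsm11 gave 0.99 and 1.17 in Hdac6 vector cells against 2.08 and 1.09 in empty vector cells, so that here empty vector array 1 was the high one.

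Among 27 chaperone and assembly genes 12 were higher and 15 lower, with a median of -0.05. Asf1b, a chaperone of H3 and H4, stood at 0.01, Chaf1a, a subunit of chromatin assembly factor 1, at -0.05 and Nasp at -0.10. Npm3 (0.51) and Nap1l4 (0.36) were the highest and Ubn1 (-0.35) and Npm2 (-0.33) the lowest. Genes listed as replication-independent histones, outside the clusters, were 10 higher and 6 lower among 16 tested, with a median of 0.09. The variants H2afz (0.04), H2afx (-0.12), H3f3a (-0.14), H3f3b (-0.10) and H1f0 (0.08) lay near 0, H2bfm (0.47) and H2afj (0.34) were the highest, and Cenpa (-0.26) and H2afy (-0.23) the lowest.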

How the data were processed

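Per the file headers, the deposited scanner files hold spot intensity from Agilent Feature Extraction 11.5.1.1, background-subtracted and detrended within each of the 4 arrays, with positions in mm9. The arrays shared 1 slide and 1 scan day. The authors also deposited a table of log2 values for 37060 gene names, used here as an alternative; its making is not given.

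Control spots and outlier flags were left out, log2 processed intensity was averaged over the spots of a probe, and the 75th percentile of the array was then taken off. Hdac6 vector and empty vector arrays were compared two-sided with limma 3.58.1 under R 4.3.3, using eBayes with a trend, with Benjamini-Hochberg adjustment over the 35214 tested probes. Intervals are 95% intervals of that fit, and a positive log2 fold change means higher in Hdac6 vector cells. The functions were tested on simulated data. The number of arrays limits the precision.

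Probes were called nearly alike where they share a run of 25 bases or align over at least 30 bases at 90% identity. Named are, per histone type, the genes with the highest and lowest fold change and the 2 highest probes, the 10 histone probes with the smallest p, the testis members, genes whose probes have opposite signs, and in each supply list the 2 highest, the 2 lowest and a fixed set. Genes outside this rule were chosen after their values were seen. The members and lists were chosen with earlier results of these data known. RefSeq GRCm38.p6 was used for names only.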

Additional observations from a re-analysis of the deposited data

How the results depend on the processing

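The median log2 fold change of the histone cluster genes was 0.30, and lay between 0.16 and 0.30 under 10 of the alternatives, the deposited value table (0.16), median scaling (0.21) and the mean of all probes of a gene (0.27) among them. Leaving out 1 array in turn gave -0.033 to 0.69, the lowest without empty vector array 1 and the highest without empty vector array 2. The cause was not tested. Among the 28 named histone probes, 9 turned sign without empty vector array 1 and 5 without empty vector array 2. Among the 30 other named probes these counts were 7 and 5. The count of histone probes past the threshold was 0 in the fit reported, 1 with normexp background correction and 0 to 6 with 1 array left out, the 6 without empty vector array 2. The normexp call was Hist1h1b, with a limma adjusted p of 0.0284, in a fit that gave no weight to a probe's own spread. Genes of histone supply gave 0 throughout. Detection on all arrays was 58 of 68 probes, 63 with the less strict flag and 50 of 56 when each gene name was counted once.

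Over all probes, 4 passed in the fit reported, against 29 with normexp background correction (offset 50), 2 with quantile normalization, 2 without a trend in the spread, 0 with median scaling and 19 in the deposited value table. With 1 array left out the count was 0 to 302, of which 12 without empty vector array 1. With the replicate number as a block 22 probes passed, none of them a histone cluster probe, but same-numbered arrays did not deviate together (correlation -0.356), and the labels give the numbers alone. The crossed pairing, added after the data were seen, gave 15 probes and 0 histone cluster probes. At an unadjusted p under 0.05 in limma, histone probes numbered 0 of 59 in the fit reported, beside 646 of all 35214. They numbered 11 with normexp (553 over all probes), 10 with the crossed pairing (1888) and 1 with quantile normalization (738). When dim probes were kept they numbered 5 of 68, beside 2111 of all 56605. The replicate block gave 3, and its count over all probes is not given here.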

Other observations

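The stem-loop letters stood whole in 1 probe without a histone cluster name, named ENSMUST00000078756 in the files, which was noticed while searching for the stem-loop. It shares a run of at least 20 bases with 4 histone cluster probes. Whether it reads a gene of the histone clusters was not checked. It gave 1.18 and 1.28 in Hdac6 vector cells, against 2.36 and 1.5 in empty vector cells, without overlap. Its log2 fold change was -0.70, with an unadjusted limma p of 0.048, and it did not pass after adjustment. Like the probes of Hist2h3c2 and unlike most probes with a histone cluster name, it was highest on empty vector array 1.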
